A study of Mus musculus with 6 samples.

Results

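The heat shock chaperones described here are 10 mouse genes, Hspa1a, Hspa1b, Hspa8, Hspa5, Hsph1, Dnajb1, Hsp90aa1, Hsp90ab1, Hspd1 and Hspb1, taken by gene symbol from the 35275 genes of the deposited tables. Each symbol matched exactly 1 row. The 6 RNA libraries came from the epithelial part of the back skin of C57BL/6 mice. In 3 of them the mice had no functional gene for the alarmin cytokine interleukin-33 (genotype IL-33 KO), and in the other 3 they were wild type (genotype WT). The skin of both genotypes had received the contact allergen DNFB (dinitrofluorobenzene) at 0.25% in acetone and olive oil, 3 times a week for 22 days. Ages and the construction of the knockout allele are not given in the sources used here, and all 6 libraries are of allergen-exposed skin. Libraries are numbered within each genotype, and no label says whether each number is its own animal. The p-values therefore rest on the spread among these libraries, which may in part be technical.

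Heat shock chaperones bind unfolded or partly folded proteins and keep them from aggregating. Members of the HSP70 family bind short hydrophobic stretches in a cycle driven by ATP, J-domain proteins such as DNAJB1 hand clients to them and start the cycle, HSP110 proteins reset it by exchanging the nucleotide, and HSP90 takes over late-folding clients such as kinases and steroid receptors. Some of these genes are transcribed in all cells, while others are strongly induced through heat shock factor 1 (HSF1), which binds heat shock elements in their promoters after heat, oxidants or other proteotoxic stress. In skin, the small heat shock protein HSPB1 is known from human epidermis as a protein of differentiating, suprabasal keratinocytes.

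Total counts ran from 20459574 to 23671769 in the IL-33 KO libraries and from 21312392 to 24359612 in the WT libraries. All 10 chaperone genes passed the filter on low counts, with between 433 counts (Hspa1a in IL-33 KO 1) and 39338 counts (Hsp90ab1 in WT 3) per gene and library. Il33 itself had 11 to 22 counts in the IL-33 KO libraries and 2817 to 3906 in the WT libraries, as their labels state. The keratins Krt14 and Krt5 of basal keratinocytes averaged 16774 and 8919 CPM (counts relative to library size, as scaled by edgeR's TMM method) in IL-33 KO, against 23341 and 10382 CPM in WT, so the libraries carry the epithelial transcripts that the labelled tissue should hold. They are not purely epithelial. The fibroblast markers Col3a1 and Col1a1 averaged 4674 and 3945 CPM in IL-33 KO, against 6156 and 4739 CPM in WT.

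Promoter windows from RefSeq (build GRCm38.p6, which has the mm10 coordinates of the deposited tables), each running from 250 bases before to 50 bases after an annotated start, were found for 7 of the 10 genes. A heat shock element is a run of GAA units in alternating orientation, each separated from the next by any 2 bases. Windows with 3 such units, spelled GAANNTTCNNGAA or TTCNNGAANNTTC (each is the reverse complement of the other, so that both strands were searched), make up 0.603% of all 32851 windows, and those with at least 2 units, GAANNTTC or TTCNNGAA, make up 15.1%. The 3-unit form was found in 2 of the 7 genes, Hspd1 and Hsph1, and the 2-unit form, which every 3-unit match also contains, in 5, namely Hspa1a, Hspa1b, Hsph1, Hspd1 and Hspb1. The 7 genes have 10 windows among them, so these counts of genes are not on the same scale as the shares of windows. The endoplasmic reticulum stress response element, whose letters are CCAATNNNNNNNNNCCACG on either strand, was found in 0.119% of all windows and among the chaperones only in Hspa5, where it begins 65 bases before the start. Such a match describes the letters of the window and does not show that a factor binds there.

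The following windows are printed 5′ to 3′ on the gene's strand because they show what the stress-inducible pair, the small heat shock protein, the mitochondrial chaperonin and the endoplasmic reticulum chaperone carry near their starts. Capitals mark heat shock element units (2 or more in a row) in the sequences of Hspa1a, Hspa1b, Hspb1 and Hspd1, and the endoplasmic reticulum stress response element in that of Hspa5. The Hspa1a window lies at chr17:34972107-34972406 (minus strand), the Hspa1b window at chr17:34959189-34959488 (minus), the Hspb1 window at chr5:135887669-135887968 (plus), the Hspd1 window, which belongs to a downstream alternative start, at chr1:55087883-55088182 (minus), and the Hspa5 window at chr2:34771840-34772139 (plus).
Hspa1a: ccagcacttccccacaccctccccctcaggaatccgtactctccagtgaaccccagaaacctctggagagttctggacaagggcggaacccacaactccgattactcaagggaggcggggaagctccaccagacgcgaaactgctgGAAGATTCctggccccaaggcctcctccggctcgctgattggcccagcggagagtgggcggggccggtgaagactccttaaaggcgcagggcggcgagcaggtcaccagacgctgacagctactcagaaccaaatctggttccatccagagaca
Hspa1b: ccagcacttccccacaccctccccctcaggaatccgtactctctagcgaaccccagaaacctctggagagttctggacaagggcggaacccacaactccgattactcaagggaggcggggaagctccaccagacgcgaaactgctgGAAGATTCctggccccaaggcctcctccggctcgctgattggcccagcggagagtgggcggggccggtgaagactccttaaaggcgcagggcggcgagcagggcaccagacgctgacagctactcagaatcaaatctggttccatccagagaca
Hspb1: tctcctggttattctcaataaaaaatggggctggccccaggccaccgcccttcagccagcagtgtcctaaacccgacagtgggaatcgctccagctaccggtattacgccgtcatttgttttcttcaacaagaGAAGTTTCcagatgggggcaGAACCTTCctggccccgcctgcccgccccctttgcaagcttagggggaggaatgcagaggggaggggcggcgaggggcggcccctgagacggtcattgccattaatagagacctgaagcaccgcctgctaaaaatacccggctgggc
Hspd1: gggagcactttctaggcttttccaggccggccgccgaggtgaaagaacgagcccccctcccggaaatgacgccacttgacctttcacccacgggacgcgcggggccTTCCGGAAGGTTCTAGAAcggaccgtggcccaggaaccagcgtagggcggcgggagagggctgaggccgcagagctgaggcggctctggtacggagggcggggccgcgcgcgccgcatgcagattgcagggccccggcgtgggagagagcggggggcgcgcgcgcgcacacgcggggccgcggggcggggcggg
Hspa5: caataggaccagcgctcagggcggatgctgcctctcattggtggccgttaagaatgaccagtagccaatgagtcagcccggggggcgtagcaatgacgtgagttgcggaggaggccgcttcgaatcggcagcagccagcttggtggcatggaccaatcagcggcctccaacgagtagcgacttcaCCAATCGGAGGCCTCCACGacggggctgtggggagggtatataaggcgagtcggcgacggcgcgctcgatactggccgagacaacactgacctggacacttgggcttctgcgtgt

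The Hspa1a and Hspa1b windows differed at 4 of 300 bases, and both held a 2-unit match beginning 104 bases before the start. Hspb1 had a pair of 2-unit matches, beginning 117 and 97 bases before its start. In the Hspd1 window consecutive alternating units gave a pair of overlapping 3-unit matches beginning 144 and 139 bases before the alternative start. The 3-unit match of Hsph1 lay after its starts, from 36 to 48 bases after one and from 15 to 27 bases after the other. The window at the other Hspd1 start and the pair of Dnajb1 windows held none of these heat shock element letters.

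The comparison asked how loss of IL-33 bears on chaperone transcripts in skin repeatedly exposed to an allergen. None of the 10 genes passed edgeR's quasi-likelihood test over all 15720 tested genes at an adjusted p of 0.05, where 3 genes in all, or 0.0191%, passed. At an unadjusted p under 0.05 there was 1 chaperone gene, Hspb1, of 10, against 9.02% of all tested genes. DESeq2 called 0 of the 10 (1 at an unadjusted p under 0.05) against 1.28% of the genes it gave an adjusted p, and limma-voom called 0 (0 at an unadjusted p under 0.05) against 0.0700%. All 10 log2 fold changes were negative with TMM scaling, from -0.74 (Hspb1) to -0.014 (Hspa1a), where 52.0% of all tested genes were negative, but with total-count scaling 8 of the 10 and 39.3% of all tested genes were negative, and Hspa1a and Hsp90ab1 turned to the positive side. The median of the 10 was -0.18 beside -0.013 over all tested genes with TMM, and -0.10 beside 0.067 with total counts. For no chaperone gene did all 3 IL-33 KO libraries lie below all 3 WT libraries, a pattern seen in 6.47% of tested genes, and for none did they lie above, which 7.46% of tested genes did. In bulk tissue a lower value can come from fewer cells of a type or from less RNA per cell, and these cannot be told apart.

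**Figure D1:**
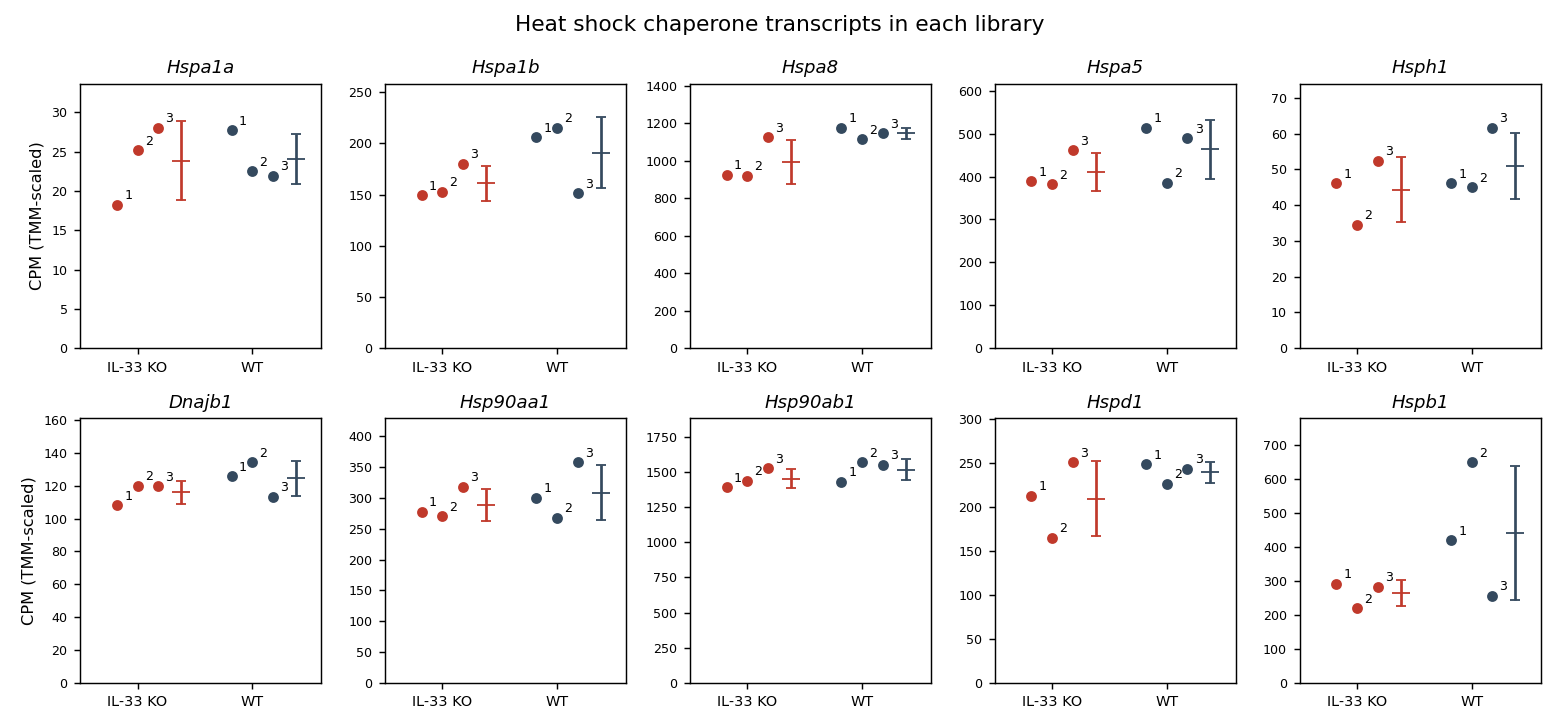
CPM of each chaperone gene (vertical axes from 0, one scale per panel) in the IL-33 KO libraries (red, left) and the WT libraries (dark, right); numbers give the library, and the bar beside each group its mean and SD (n = 3). The groups overlap in every panel, and Hspb1 has the widest WT spread, 257 to 649 CPM.

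Among the HSP70 genes, Hspa8 codes for the constitutive cytosolic HSP70 (HSC70). It had 925, 921 and 1126 CPM in IL-33 KO 1, 2 and 3, against 1176, 1113 and 1147 CPM in WT 1, 2 and 3. IL-33 KO 1 and 2 were below every WT library, while IL-33 KO 3 lay above WT 2. The means were 991 ± 117 CPM in IL-33 KO, against 1145 ± 31.5 CPM in WT (SD, n = 3 each), which gave a log2 fold change of -0.21 ± 0.15 (SE, adjusted p 0.692 in edgeR).

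Hspa1b and Hspa1a code for the stress-inducible cytosolic HSP70 and lie 9951 bases apart on the minus strand of chromosome 17 (mm10, Hspa1b at 34956436 to 34959238 and Hspa1a at 34969190 to 34972156), each with a single exon. Hspa1b had 149, 153 and 180.4 CPM in IL-33 KO, against 206, 215 and 151 CPM in WT. WT 1 and 2 were above every IL-33 KO library, but WT 3 lay among them. The log2 fold change of Hspa1b was -0.25 ± 0.17 (SE, adjusted p 0.671 in edgeR). Hspa1a had 18.3, 25.2 and 28.1 CPM in IL-33 KO, against 27.8, 22.5 and 21.9 CPM in WT, so that the lowest and the highest library were both IL-33 KO. Its log2 fold change was -0.014 ± 0.18 (SE, adjusted p 0.986 in edgeR).

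Although their promoter windows are 98.7% identical, the counts assigned to Hspa1b were 6.07 to 8.18 times those of Hspa1a in the IL-33 KO libraries and 6.89 to 9.56 times in the WT libraries. The split between the copies is uncertain. Of all 100-base windows of the Hspa1a transcript in GENCODE M21, 47.1% also occur in Hspa1b, and 49.9% of those of Hspa1b occur in Hspa1a. The submitters' notes name RSEM but do not say how shared reads were divided in the deposited whole-number counts. Hspa1a, unlike Hspa1b, is also overlapped by a listed gene on the plus strand, Gm20481 (34969912 to 34972136), with 0 counts in every library. Whether reads were counted by strand is not given, and the part of this overlap in the Hspa1a counts was not tested. A sum of Hspa1a and Hspa1b does not depend on how counted reads were divided between them, but it restores no reads left uncounted. Summed, they had 168, 178 and 208 CPM in IL-33 KO, against 234, 238 and 173 CPM in WT. The means were 185 ± 21.1 CPM in IL-33 KO, against 215 ± 36.4 CPM in WT (SD, n = 3 each). The summed log2 fold change was -0.22 ± 0.16 (SE, adjusted p 0.699 in edgeR).

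Hspa5 codes for BiP, the HSP70 of the endoplasmic reticulum and the sensor-binding protein of its unfolded protein response. It had 389, 383 and 461 CPM in IL-33 KO, against 514, 386 and 490.1 CPM in WT. WT 2 lay as low as IL-33 KO 1 and 2, and the means were 411 ± 43.8 CPM in IL-33 KO, against 463 ± 68.0 CPM in WT (SD, n = 3 each; log2 fold change -0.17 ± 0.16 SE, adjusted p 0.749 in edgeR).

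Dnajb1 codes for the J-domain partner that hands clients to HSP70. It had 108, 119.95 and 119.6 CPM in IL-33 KO, against 126, 134 and 113 CPM in WT. WT 3 lay below IL-33 KO 2 and 3, and the log2 fold change of -0.10 ± 0.12 (SE) had an adjusted p of 0.796 in edgeR. Hsph1 codes for HSP110, the nucleotide exchange factor of HSP70. It had 46.1, 34.5 and 52.4 CPM in IL-33 KO, against 46.2, 45.0 and 61.7 CPM in WT. The lowest value was that of IL-33 KO 2 and the highest that of WT 3, with the other libraries intermixed (log2 fold change -0.20 ± 0.19 SE, adjusted p 0.750 in edgeR).

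Hsp90ab1, the constitutive cytosolic HSP90, had 1392, 1437 and 1528 CPM in IL-33 KO, against 1429.7, 1567 and 1551 CPM in WT, means of 1452 ± 69.0 CPM in IL-33 KO, against 1516 ± 75.2 CPM in WT (SD, n = 3 each). Its highest library exceeded its lowest by a factor of 1.13, the smallest such ratio among the 10 genes. Its log2 fold change was -0.062 ± 0.15 (SE, adjusted p 0.905 in edgeR), with a 95% interval of the ratio of IL-33 KO to WT of 0.757 to 1.21. Hsp90aa1, the inducible form, had 278, 271 and 318 CPM in IL-33 KO, against 300.5, 268 and 358 CPM in WT. WT 2 was the lowest library and WT 3 the highest, so the WT libraries spanned all of the IL-33 KO values (log2 fold change -0.095 ± 0.15 SE, adjusted p 0.857 in edgeR).

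Hspd1 codes for HSP60, the chaperonin of the mitochondrial matrix, and overlaps at its 5′ end, on the opposite strand, the gene of its 10-kDa partner Hspe1, and the sources used here do not say whether reads were counted by strand. Hspd1 had 213, 165 and 250.4 CPM in IL-33 KO, against 248, 226 and 243 CPM in WT. IL-33 KO 3 was the highest and IL-33 KO 2 the lowest of the 6 libraries. The log2 fold change was -0.19 ± 0.17 (SE, adjusted p 0.733 in edgeR). Hspe1 averaged 135 ± 39.8 CPM in IL-33 KO, against 153 ± 18.3 CPM in WT (SD, n = 3 each).

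Hspb1, the small heat shock protein that holds unfolded clients without using ATP, had the widest spread of the 10. It had 292, 220.2 and 283 CPM in IL-33 KO, against 419, 649 and 257 CPM in WT. WT 1 and 2 stood above every IL-33 KO library, and WT 3 below IL-33 KO 1 and 3. The means were 265 ± 39.1 CPM in IL-33 KO, against 442 ± 197 CPM in WT (SD, n = 3 each), a log2 fold change of -0.74 ± 0.31 (SE), or an IL-33 KO level of 0.600 times the WT level with a 95% interval of 0.367 to 0.982. The unadjusted p was 0.0439 and the adjusted p 0.547 in edgeR, and the exact two-sided permutation test of its 6 log2 CPM values gave 0.3, where 0.1 is the smallest value that 3 against 3 allows. Without WT 2 the log2 fold change was -0.35 (adjusted p 0.879), and without WT 3 it was -1.01 (adjusted p 0.0921). The summed level of 9 suprabasal keratinocyte markers (Krt1, Krt10, Ivl, Lor, Flg, Dsg1a, Dsc1, Sbsn and Krtdap) was 6149, 12389.6 and 11585 FPKM in IL-33 KO 1, 2 and 3, against 15093, 18065 and 10136.5 FPKM in WT 1, 2 and 3 (FPKM, as deposited, is counts scaled to gene length and library total). As for Hspb1, WT 2 was highest, WT 1 next, and WT 3 within the range of the IL-33 KO libraries, but the lowest library for Hspb1, IL-33 KO 2, had the third highest marker sum. All 9 markers had negative log2 fold changes with TMM and with total counts (medians -0.53 and -0.44), 0 of them passed over all genes, and none was at 0. Their part in the Hspb1 values was not tested.

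**Figure D2:**
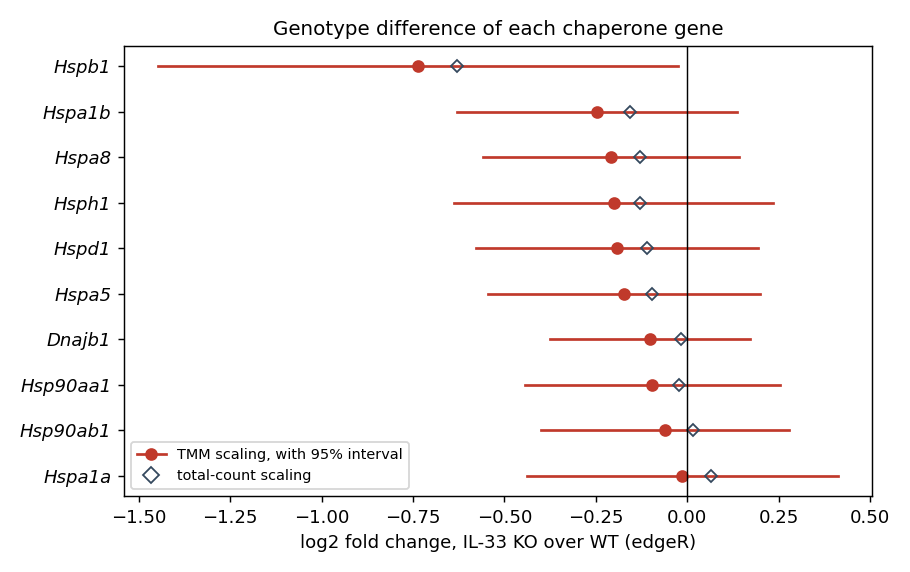
Log2 fold change of IL-33 KO over WT for each chaperone gene from edgeR, with TMM scaling (red points; bars are 95% intervals) and with total-count scaling (open diamonds, no interval drawn). The interval of Hspb1 alone lies wholly below 0 before adjustment, and total-count scaling puts Hspa1a and Hsp90ab1 on the positive side.

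Apart from Hspb1, the 95% interval of the ratio of IL-33 KO to WT included 1 for every chaperone gene, and its lower end lay between 0.643 (Hsph1) and 0.771 (Dnajb1). The interval was 0.771 to 1.13 for Dnajb1, 0.679 to 1.10 for Hspa8 and 0.735 to 1.19 for Hsp90aa1.

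By library, IL-33 KO 3 stood with the WT libraries. The mean over the genes of log2 CPM, relative to each gene's mean over all libraries, was -0.16, -0.21 and 0.072 in IL-33 KO 1, 2 and 3, against 0.14, 0.12 and 0.039 in WT 1, 2 and 3. IL-33 KO 3 thus exceeded WT 3. The lowest library was IL-33 KO 1 for 4 genes, IL-33 KO 2 for 5 and WT 2 for 1. The highest was IL-33 KO 3 for 2 genes, WT 1 for 2, WT 2 for 4 and WT 3 for 2. Together they took 0.409%, 0.373% and 0.439% of all counts in IL-33 KO and 0.418%, 0.435% and 0.460% in WT. Leaving out IL-33 KO 3 moved the median log2 fold change of the 10 to -0.29, and leaving out IL-33 KO 2 moved it to -0.091.

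**Figure D3:**
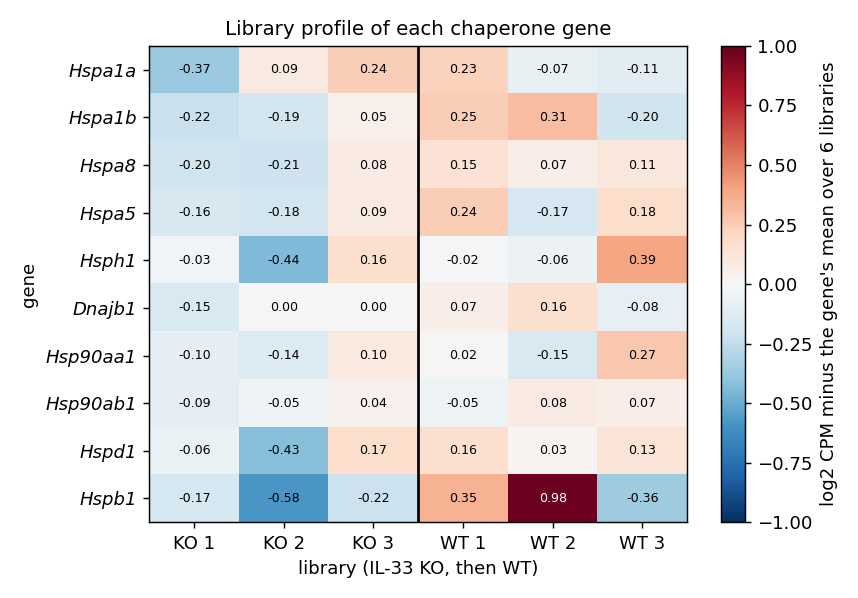
Log2 CPM of each chaperone gene (rows) in each library (columns, IL-33 KO left of the line, WT right), relative to the gene's mean over the 6 libraries; red is above and blue below that mean. IL-33 KO 3 is above the mean for most genes, as the WT libraries are, and Hspb1 ranges from -0.58 in IL-33 KO 2 to 0.98 in WT 2.

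The mean profile of the 10 chaperones contains each chaperone's own values, whereas other genes do not enter it. Of the 10, Hspa8 lay closest to it, with a root mean square difference of 0.041 on the log2 scale over the 6 libraries, and Hspb1 farthest, at 0.44. Among the other tested genes the profiles nearest to that mean were those of Psma5, a proteasome subunit (0.023), Ywhah, a 14-3-3 protein (0.026), Ddost, a subunit of the oligosaccharyltransferase (0.026), Ctu2, which thiolates transfer RNAs (0.028), and Cdipt, the phosphatidylinositol synthase (0.032). The median over all other tested genes was 0.257, and the search picked the smallest values of all of them. Psma5, the nearest, had 82.5, 81.2 and 97.3 CPM in IL-33 KO, against 104, 104 and 94.0 CPM in WT.

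Compared per gene length in the deposited FPKM values, Hsp90ab1 was the most abundant of the 10, at 592 ± 20.8 FPKM in IL-33 KO, against 586 ± 57.9 in WT (SD, n = 3 each). Hspb1 followed with 294 ± 51.3 FPKM in IL-33 KO, against 455 ± 186 FPKM in WT and Hspa8 with 322 ± 34.7 FPKM in IL-33 KO, against 353 ± 25.0 FPKM in WT. Hspb1 overlapped in range with both of these neighbours, and it exceeded Hspa8 in 3 of 6 libraries. Hspa5 stood next, at 162 ± 15.9 FPKM in IL-33 KO, against 173 ± 30.1 FPKM in WT, apart from its neighbours on either side in every library. Hspd1 (88.9 ± 18.7 FPKM in IL-33 KO, against 96.1 ± 8.66 FPKM in WT) and Hsp90aa1 (90.5 ± 7.74 FPKM in IL-33 KO, against 92.0 ± 19.5 FPKM in WT) did not differ beyond their spread. Hspa1b (59.0 ± 5.40 FPKM in IL-33 KO, against 65.7 ± 8.27 FPKM in WT) overlapped in range with Dnajb1 (52.6 ± 1.17 FPKM in IL-33 KO, against 53.3 ± 2.13 FPKM in WT), although it was higher in each of the 6 libraries. Hsph1 (9.59 ± 2.04 FPKM in IL-33 KO, against 10.5 ± 2.65 FPKM in WT) and Hspa1a (8.22 ± 1.496 FPKM in IL-33 KO, against 7.86 ± 0.795 FPKM in WT) came last with overlapping ranges. On this scale, which divides by total counts, Hsp90ab1 and Hspa1a were slightly higher in IL-33 KO, the reverse of their TMM values.

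**Figure D4:**
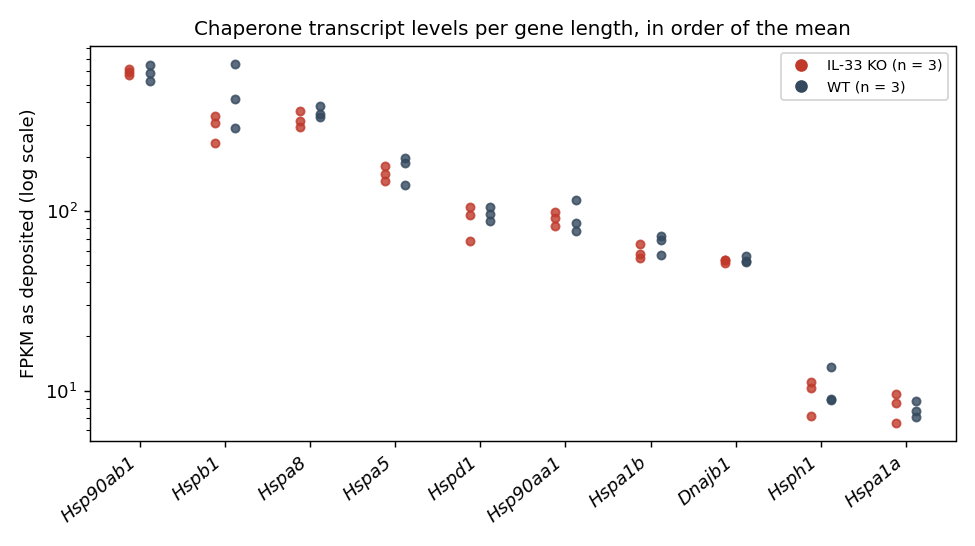
Deposited FPKM (log scale) of the chaperone genes in order of their mean over 6 libraries, with IL-33 KO libraries in red, left, and WT libraries in dark, right, of each position. Levels run from 528 to 644 FPKM for Hsp90ab1 down to 6.604 to 9.55 FPKM for Hspa1a.

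How reads of close copies were divided can affect these levels, and this was not tested. In GENCODE M21, 63.4% of the 100-base windows of the Hspa8 transcript, 47.5% of those of Hsp90aa1, 42.7% of those of Hspb1 and 26.9% of those of Hspd1 also occur in transcripts of other genes, whereas 0 windows of Hspa5, Hsph1, Dnajb1 and Hsp90ab1 do. Of 50-base windows, 74.8% were shared for Hspa8, 58.5% for Hsp90aa1, 51.6% for Hspb1 and 44.8% for Hspd1. The shares were 4.49% for Hsp90ab1 and 0.441% for Dnajb1, and still 0 for Hspa5 and Hsph1. The deposited table assigned few counts to the leading copies that it lists. The pseudogene Hsp25-ps1 of Hspb1 had 1 to 12 counts in the IL-33 KO libraries and 4 to 6 in the WT libraries, and Gm12346, a pseudogene of Hsp90aa1, had 19 to 23 in the IL-33 KO libraries and 18 to 29 in the WT libraries. Gm26825, a long noncoding RNA gene that shares 58.5% of the 100-base Hspa8 windows, was listed at 0 counts in all 6.

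Related genes were read the same way, by sign with TMM and with total-count scaling. Of 10 other HSP70 genes tested, 7 had positive and 3 negative log2 fold changes (median 0.19), and 0 passed; with total counts 8 were positive (median 0.26). Hspa2, an HSP70 best known from the testis, had 29.6, 19.3 and 22.6 CPM in IL-33 KO, against 9.42, 12.7 and 15.6 CPM in WT, without overlap (log2 fold change 0.92 ± 0.23 SE, adjusted p 0.380 in edgeR). Hspa1l, the neighbour of Hspa1a, also did not overlap but stayed under 1 CPM. It averaged 0.772 ± 0.174 CPM in IL-33 KO, against 0.412 ± 0.0553 CPM in WT (SD, n = 3 each). All IL-33 KO libraries lay above all WT libraries in 2 of the 10, beside 7.46% of all tested genes. Beside Hspa2, the hair follicle markers had positive log2 fold changes in 17 of 17 tested members, of which 0 passed (smallest adjusted p 0.125 in edgeR), and summed levels of 4462 to 9461 FPKM in IL-33 KO against 1045 to 2647 FPKM in WT, none of the 17 listed markers being at 0. Their part in the Hspa2 values was not tested.

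The J-domain list was split into 8 positive and 9 negative with TMM and into 12 and 5 with total counts (17 tested, 0 passed, medians -0.025 and 0.058). Dnajb5 had 10.3, 11.4 and 10.2 CPM in IL-33 KO, against 12.6, 15.2 and 14.7 CPM in WT (adjusted p 0.504 in edgeR), and Dnajb4 28.5, 31.1 and 31.3 CPM in IL-33 KO, against 40.1, 37.7 and 34.9 CPM in WT (adjusted p 0.508), both without overlap. All IL-33 KO libraries lay below all WT libraries in 2 of the 17 J-domain genes, beside 6.47% of all tested genes. Of 5 tested small heat shock proteins 4 were positive with either scaling (medians 0.13 and 0.21), and 0 passed. Hspb7, a small heat shock protein of heart and skeletal muscle, had 3.84, 1.39 and 6.00 CPM in IL-33 KO 1, 2 and 3, against 1.31, 1.83 and 1.77 CPM in WT. It was high in IL-33 KO 3 and 1, where the summed skeletal muscle markers reached 204 and 105 FPKM, against 15.4 FPKM in IL-33 KO 2 and 12.1 to 16.3 FPKM in the WT libraries. All 10 tested muscle markers of 14 listed had positive log2 fold changes, 0 of them passed, and none was at 0 in every library. Their part in the Hspb7 values was not tested. The other member of smallest p, Hspb2, averaged 2.55 ± 0.468 CPM in IL-33 KO, against 3.13 ± 0.617 CPM in WT (SD, n = 3 each).

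The HSP90 family and co-chaperone list held 17 negative and 4 positive genes of 21 tested with TMM (median -0.082), but 11 negative and 10 positive with total counts (median -0.00071), and 0 passed. Fkbp5, a steroid receptor co-chaperone that glucocorticoids induce, had 40.7, 41.3 and 38.4 CPM in IL-33 KO, against 45.6, 60.3 and 68.6 CPM in WT, without overlap (log2 fold change -0.54 ± 0.16 SE, adjusted p 0.440 in edgeR). All IL-33 KO libraries lay below all WT libraries in 3 of the 21, beside 6.47% of all tested genes. Bag3, an HSP70 co-chaperone of selective autophagy, had 49.4, 51.5 and 57.6 CPM in IL-33 KO, against 62.7, 78.7 and 55.4 CPM in WT (adjusted p 0.580). Chaperonins and mitochondrial chaperones were negative in 10 of 15 with TMM (median -0.051) and in 4 of 15 with total counts (median 0.033), and 0 passed, with Grpel2 at 48.2 ± 4.71 CPM in IL-33 KO, against 54.5 ± 6.29 CPM in WT and Cct3 at 159 ± 17.1 CPM in IL-33 KO, against 179 ± 17.7 CPM in WT (SD, n = 3 each).

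Heat shock factors and their regulators were negative in 4 of 5 tested with either scaling (medians -0.34 and -0.25, 0 passed). Hsf1, the main inducer of the heat shock genes, had 21.6, 19.4 and 23.2 CPM in IL-33 KO, against 25.0, 32.5 and 23.4 CPM in WT, so that the groups missed each other by a narrow gap between IL-33 KO 3 and WT 3 (log2 fold change -0.34 ± 0.16 SE, adjusted p 0.576 in edgeR). Hsbp1, which binds heat shock factor trimers, had 85.8, 76.6 and 94.8 CPM in IL-33 KO, against 109, 138 and 91.7 CPM in WT (adjusted p 0.547). The list of other HSF1 targets was negative in 10 of 10 with TMM and in 9 with total counts (medians -0.20 and -0.12, 0 passed), led by P4ha1, a collagen prolyl hydroxylase subunit, at 36.8 ± 4.39 CPM in IL-33 KO, against 48.2 ± 6.62 CPM in WT, and Cacybp at 74.2 ± 9.55 CPM in IL-33 KO, against 85.2 ± 4.99 CPM in WT (SD, n = 3 each). Genes of the unfolded protein response were negative in 17 of 20 with TMM and in 14 with total counts (medians -0.22 and -0.14, 0 passed). Herpud1, of endoplasmic reticulum degradation, had 44.9 ± 2.72 CPM in IL-33 KO, against 55.0 ± 6.85 CPM in WT (SD, n = 3 each). Creld2 had 30.2 ± 5.06 CPM in IL-33 KO, against 37.7 ± 1.68 CPM in WT (SD, n = 3 each), and both were without overlap. All IL-33 KO libraries lay below all WT libraries in 4 of the 20, beside 6.47% of all tested genes.

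Immediate early genes, which cells transcribe within minutes of a stimulus, were negative in 19 of 20 with TMM and in 18 with total counts (medians -0.37 and -0.28), and 0 passed. In 5 of the 20 all IL-33 KO libraries lay below all WT libraries, beside 6.47% of all tested genes. Nr4a1 had 13.1, 14.5 and 17.4 CPM in IL-33 KO, against 33.2, 28.0 and 25.5 CPM in WT (adjusted p 0.187 in edgeR), and Dusp1 50.2, 77.2 and 97.2 CPM in IL-33 KO, against 138, 150.2 and 126 CPM in WT (adjusted p 0.389). Fos stood at 56.2 ± 10.9 CPM in IL-33 KO, against 121 ± 45.1 CPM in WT and Fosb at 4.26 ± 1.88 CPM in IL-33 KO, against 16.3 ± 4.78 CPM in WT (SD, n = 3 each). These 4 were named for the smallest p of the 20, whose log2 fold changes ran from -1.94 to 0.23. The summed level of the 20 was 805 to 999 FPKM in IL-33 KO, against 942 to 1307 FPKM in WT, and its part in the chaperone values was not tested. Of the further marker lists, basal keratinocyte genes were negative in 6 of 7 with TMM and in 3 with total counts, fibroblast genes in 6 of 7 with either, and leukocyte genes in 8 of 11 with TMM and in 6 with total counts, while adipocyte genes were positive in 7 of 8 and endothelial genes in 3 of 5 with either. In each of these lists 0 genes passed and none was at 0 in every library.

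**Figure D5:**
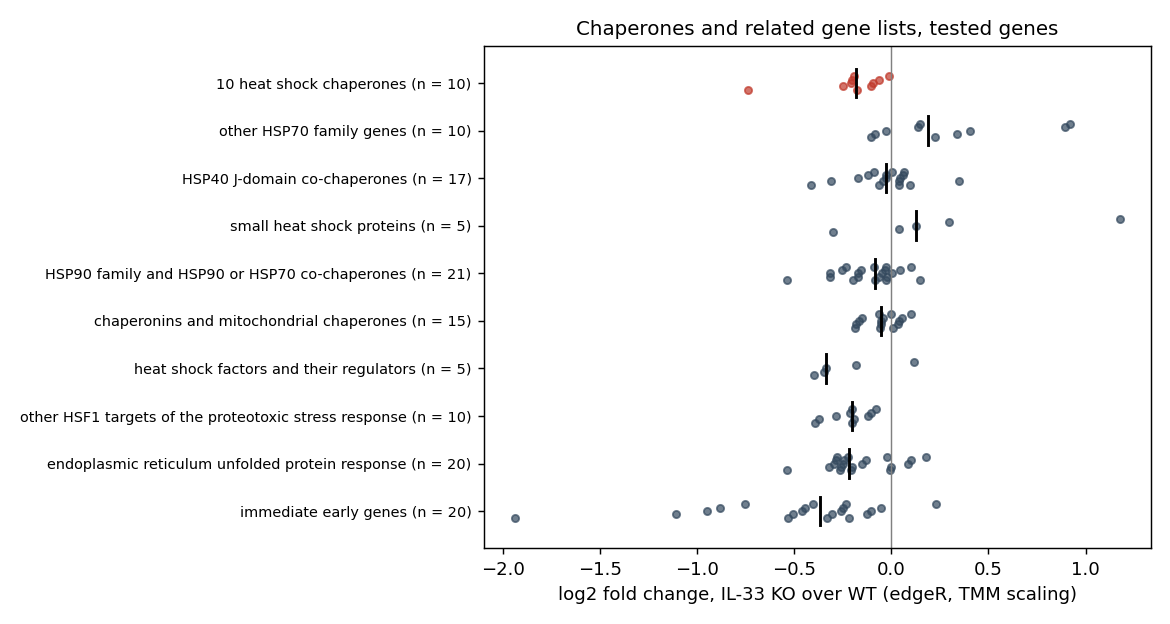
Log2 fold change of IL-33 KO over WT (edgeR, TMM scaling) of each tested gene (points, spread vertically for visibility) in the 10 chaperones (red, top) and in lists of related genes; black bars are medians. The medians of the chaperones (-0.18), the other HSF1 targets (-0.20) and the unfolded protein response (-0.22) lie below 0, as they do with total counts. Those of the heat shock factors and their regulators (-0.34) and the immediate early genes (-0.37) are lower still, also with total counts. The medians of the other HSP70 genes (0.19) and the small heat shock proteins (0.13) lie above 0.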

How the data were processed

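RNA of 6 back skin libraries was sequenced, 3 IL-33 KO and 3 WT. Reads were aligned and quantified with STAR and RSEM on mm10, per the submitters' processing notes, which give no versions. The authors deposited whole-number counts per gene and FPKM values. The deposited FPKM equal count per length and total count to within 2.78e-07 of their value. Counts of any pair of libraries differed by at least 31.7 times the sampling noise (chi-square per degree of freedom), so none is a repeat deposit.

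Counts were tested with edgeR 4.0.16 in R 4.3.3 (quasi-likelihood test, TMM scaling, filterByExpr, genotype as the only term, two-sided, Benjamini-Hochberg adjustment over 15720 genes, threshold 0.05). DESeq2 1.42.0, limma-voom and limma on log2(FPKM + 1) (limma 3.58.1) were alternatives, and the fits were tested on simulated data. Intervals are 95%. The 10 chaperones and the 17 lists of related and marker genes (205 symbols) were chosen with earlier results of these data known. Named were all chaperones, in each related list the 2 genes of smallest p (4 among immediate early genes), the 5 genes of nearest profile, and up to 2 examples of a marker list. Hspa1a and Hspa1b were also summed. Promoter windows came from RefSeq, and transcripts from GENCODE M21. The biological coefficient of variation was 21.3%.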

Additional observations from a re-analysis of the deposited data

How the results depend on the processing

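None of the 10 chaperones passed in any of the 17 alternatives. Over all genes, 3 passed in the main test, 5 with upper quartile scaling, 5 with total counts, 33 without the filter on low counts, 234 with DESeq2, 11 with limma-voom, 15 with log2(FPKM + 1), 11 with log2(FPKM + 0.1), 6 with log2(FPKM + 1) without a filter, and 2 to 24 when 1 library was left out (24 with WT 3 left out, 10 with IL-33 KO 2 left out, 5 with IL-33 KO 3 left out). The cause of these differences was not tested. Hspa1a turned positive with upper quartile scaling (0.0071), total counts (0.066), log2(FPKM + 1) with and without the filter (0.049) and log2(FPKM + 0.1) (0.053), and ranged from -0.15 to 0.15 when 1 library was left out. Hsp90ab1 turned positive with total counts (0.016) and in the FPKM fits (0.020), and Hsp90aa1 ranged from -0.18 to 0.022 when 1 library was left out, positive without WT 3. The other 7 genes kept a negative sign in all 17. With the replicate number as a block (replicate block), 2 genes passed, the log2 fold change of Hspb1 was -0.64, that of Hspa1a and Hspa1b summed -0.21, and the median of the chaperones -0.19. Same-numbered libraries did not deviate together (correlations -0.26, -0.12 and -0.38). So few correlations cannot decide whether the numbers pair the libraries, and the labels do not say. With 3 libraries a genotype, the CPM values of IL-33 KO and WT overlapped for each of the 10 chaperones.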

Other observations

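The balance of the HSP90 forms was measured within each library. Hsp90ab1 had 6.52, 6.91 and 6.24 times the FPKM of Hsp90aa1 in IL-33 KO 1, 2 and 3 and 6.19, 7.61 and 5.65 times in WT 1, 2 and 3, so the WT libraries spanned the IL-33 KO values. Over the 6 libraries the median ratio of highest to lowest CPM was 1.39 for the 10 chaperones and 1.40 for the 7027 genes at least as abundant as the least abundant of them.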
